A study of Mus musculus with 14 samples.

Results

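The secreted and membrane proteins that start and restrain Wnt signalling were followed through accessible chromatin near their genes. The members were the 37 protein-coding genes of GENCODE M21 whose symbols are Wnt, Fzd, Dkk or Sfrp followed by a digit, and the open regions whose nearest protein-coding transcription start site (TSS), within 50 kb, belonged to them. By this rule 259 of 124598 merged regions were members, out of 92572 regions that had any protein-coding TSS within that distance. The 19 Wnt genes held 136 regions, the 10 Frizzled (Fzd) genes 71, the 4 Dkk genes 23 and the 4 Sfrp genes 29. Dkk4 had no region, and the other genes had between 1 and 18, with a median of 7 over the 37 genes.

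Open chromatin was listed by ATAC-seq, which reads the sites that a transposase can reach, in KH2 mouse embryonic stem (ES) cells of strain C57BL/6 that carry the transgene TRE:GATA6-DSREd2 and make the endoderm factor GATA6 under doxycycline (Dox). Primitive endoderm (PrE), the fate that GATA6 drives, forms the lining of the yolk sac. There were 2 libraries of 50000 unsorted cells at each of 0, 2, 4, 8, 16, 24 and 48 h, 14 in all. All cells carried the transgene, were one engineered line and were kept with LIF. Cells at 0 h grew without Dox in 2i medium, which holds PD0325901, a MEK inhibitor, and the compound the labels call CHIR9902. The 2i mixture is known to hold a GSK3 inhibitor, which turns on the β-catenin branch of Wnt signalling. Cells at 2, 4 and 8 h were in serum medium with Dox at 1 µg/mL for that long, and cells at 16, 24 and 48 h had Dox for 12 h and serum medium without Dox afterwards. GATA6 induction, the start of serum and the end of MEK and GSK3 inhibition therefore fell together at 0 h. They cannot be told apart, because serum cultures without Dox were not among the libraries. For this reason 48 h was also set against 2 h, when cells of both time points were in serum. Time in serum and the presence of Dox still differed between them, so late effects of the medium cannot be told apart from those of GATA6.

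Wnt ligands are secreted lipid-modified proteins that bind Frizzled receptors, together with Lrp5 or Lrp6 for the β-catenin branch, in which β-catenin escapes degradation and acts through TCF/LEF factors at target genes. Dkk proteins block the Lrp co-receptors, and Sfrp proteins carry a Frizzled-like domain that binds Wnt ligands outside the cell. In the embryo the visceral endoderm, which descends from PrE, is known as a source of Wnt inhibitors, Dkk1 and Sfrp5 among them, that limit signalling on the neighbouring epiblast.

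A region counted as called wherever a peak of the library covered any of its bases. Regions called by both libraries of a time point and by neither 0 h library were termed gained, the opposite pattern lost, and regions called by all 4 shared. The lists hold peaks without read counts, the read numbers that the study gives were left unused, and a region that was not called may still be open below the calling threshold. In unsorted cells, fewer cells with an open region and less opening per cell cannot be told apart. No exact two-sided test of 2 libraries on each side can give a p below 0.33, so counts of gained and lost regions carry no p, and each is read against the share of all 92572 assigned regions called by the same rule.

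Sequences are shown for 1 gained and 1 lost region of each family as examples, the highest-ranked ones outside exons. Each is the 200 bases around the region's centre, 5′ to 3′ on the plus strand of GRCm38. Capitals mark GATA words, which are AGATAA, the variant of it AGATAG, then likewise TGATAA, the variant of it TGATAG, and the reverse complements of each.
Wnt16 gained region, 7975 bp upstream, chr6:22280153-22280352, plus strand: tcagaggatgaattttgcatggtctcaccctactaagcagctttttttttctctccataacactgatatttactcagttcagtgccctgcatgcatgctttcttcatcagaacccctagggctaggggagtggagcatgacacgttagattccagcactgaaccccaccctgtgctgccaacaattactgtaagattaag
Fzd6 gained region, 3778 bp downstream, chr15:39010012-39010211, plus strand: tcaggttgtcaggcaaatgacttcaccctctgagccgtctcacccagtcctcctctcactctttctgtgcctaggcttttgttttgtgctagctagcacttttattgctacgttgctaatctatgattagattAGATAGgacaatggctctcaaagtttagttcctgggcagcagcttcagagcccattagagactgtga
Dkk1 gained region, 39172 bp downstream, chr19:30510394-30510593, plus strand: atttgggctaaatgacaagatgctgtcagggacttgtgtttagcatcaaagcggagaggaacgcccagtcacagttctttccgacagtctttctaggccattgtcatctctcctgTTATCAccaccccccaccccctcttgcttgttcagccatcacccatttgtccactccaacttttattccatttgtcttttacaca
Sfrp1 gained region, 19402 bp upstream, chr8:23392001-23392200, plus strand: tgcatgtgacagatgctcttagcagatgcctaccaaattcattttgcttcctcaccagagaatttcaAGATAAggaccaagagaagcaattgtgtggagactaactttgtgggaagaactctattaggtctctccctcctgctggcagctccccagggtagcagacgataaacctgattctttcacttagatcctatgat
Wnt5a lost region, 17034 bp downstream, chr14:28528340-28528539, plus strand: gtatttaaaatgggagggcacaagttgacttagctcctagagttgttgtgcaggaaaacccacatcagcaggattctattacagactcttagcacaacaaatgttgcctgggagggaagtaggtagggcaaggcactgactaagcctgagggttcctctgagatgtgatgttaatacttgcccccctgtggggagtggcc
Fzd9 lost region, 4628 bp downstream, chr5:135246503-135246702, plus strand: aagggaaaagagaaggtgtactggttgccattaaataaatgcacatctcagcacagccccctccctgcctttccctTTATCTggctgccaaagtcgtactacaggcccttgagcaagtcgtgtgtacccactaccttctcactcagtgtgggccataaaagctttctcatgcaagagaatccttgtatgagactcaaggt
Dkk1 lost region, 44078 bp downstream, chr19:30505488-30505687, plus strand: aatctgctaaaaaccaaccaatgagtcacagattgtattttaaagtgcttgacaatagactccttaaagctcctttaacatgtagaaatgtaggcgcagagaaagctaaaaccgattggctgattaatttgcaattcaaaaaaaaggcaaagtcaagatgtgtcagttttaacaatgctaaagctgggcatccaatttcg
Sfrp1 lost region, 12073 bp upstream, chr8:23399330-23399529, plus strand: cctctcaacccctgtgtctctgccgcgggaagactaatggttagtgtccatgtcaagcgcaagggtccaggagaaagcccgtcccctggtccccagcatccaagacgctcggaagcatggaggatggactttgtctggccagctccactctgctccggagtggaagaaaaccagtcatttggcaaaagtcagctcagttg
The windows gained at Fzd6, Dkk1 and Sfrp1 held 1 GATA word each, as did the window lost at Fzd9. The Wnt16 window and the windows lost at Wnt5a, Dkk1 and Sfrp1 held none. The gained Dkk1 window also held 1 TCF/LEF word, left in lower case.

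Called regions of the Wnt ligands made up 36.0% ± 1.04 (SD, n = 2) of the 136 at 0 h and 45.6% ± 1.04 at 2 h. They made up 56.6% ± 1.04 at 16 h and 52.6% ± 0.52 at 48 h. The 2 libraries of 48 h both lay above those of 0 h. Over all assigned regions the share was 46.6% ± 1.85 at 0 h, 51.7% ± 2.18 at 16 h and 46.6% ± 1.77 at 48 h, so the background was level between the ends of the series. Sfrp regions took another course, with 56.9% ± 2.44 at 0 h and 67.2% ± 2.44 at 16 h, followed by 46.6% ± 2.44 at 24 h and 39.7% ± 2.44 at 48 h. Those 29 regions lie at 4 genes, and libraries of 24 and 48 h did not overlap with the earlier ones. Over all assigned regions the 24 h libraries, at 46.3% and 47.7%, also lay below those of 16 h, at 50.2% and 53.2%. Unlike the Sfrp share, the background at 24 h overlapped with that of 0 h, at 45.3% and 47.9%. Frizzled regions stood at 45.8% ± 0.996 at 0 h, 57.0% ± 0.996 at 16 h and 53.5% ± 1.99 at 48 h. Dkk regions stood at 60.9% ± 6.15 at 0 h and 47.8% ± 0 at 48 h, a difference of 3 regions.

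**Figure D1:**
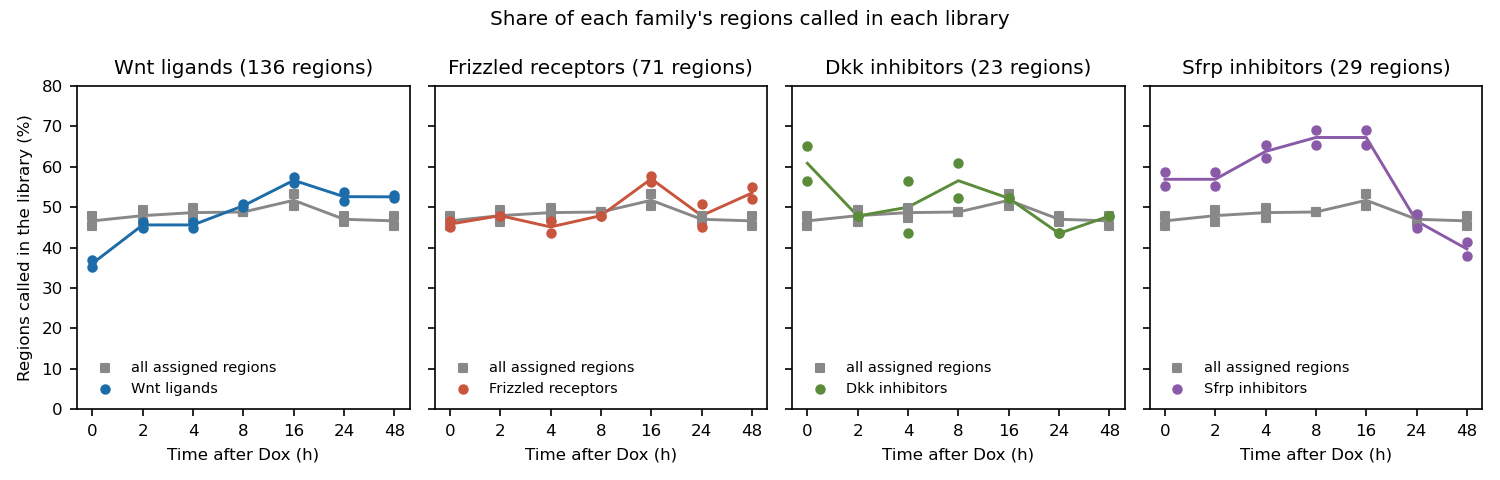
Percent of each family's regions called in each library (vertical axis) at each time after Dox (horizontal axis, time points evenly spaced, not to scale). Points are single libraries, coloured for the family and grey for all assigned regions, and lines join the means of 2 libraries. Wnt regions start below the grey line at 36.0% and end above it at 52.6%, and Sfrp regions start above it at 56.9% and end below it at 39.7%.

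At 48 h, 46 of the 259 regions (17.8%) were gained, beside 14.2% of all assigned regions, and 34 (13.1%) were lost, beside 14.8%. A further 53 (20.5%) were shared, beside 22.4%. The 4 families together were thus near the background in both directions. The families differed in the balance. Wnt genes had 24 gained (17.6%) and 11 lost (8.09%), Frizzled genes 16 gained (22.5%) and 12 lost (16.9%), Dkk genes 4 gained and 5 lost, and Sfrp genes 2 gained (6.90%) and 6 lost (20.7%). By gene, 11 of 19 Wnt genes had more gained than lost regions and 2 had more lost, whereas 3 of 4 Sfrp genes had more lost and none had more gained. The same balance was not counted over all genes. With single libraries compared, replicate 1 or replicate 2 alone, the 4 families had 68 or 65 gained and 46 or 47 lost regions. The share of all assigned regions was not counted by this looser rule.

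**Figure D2:**
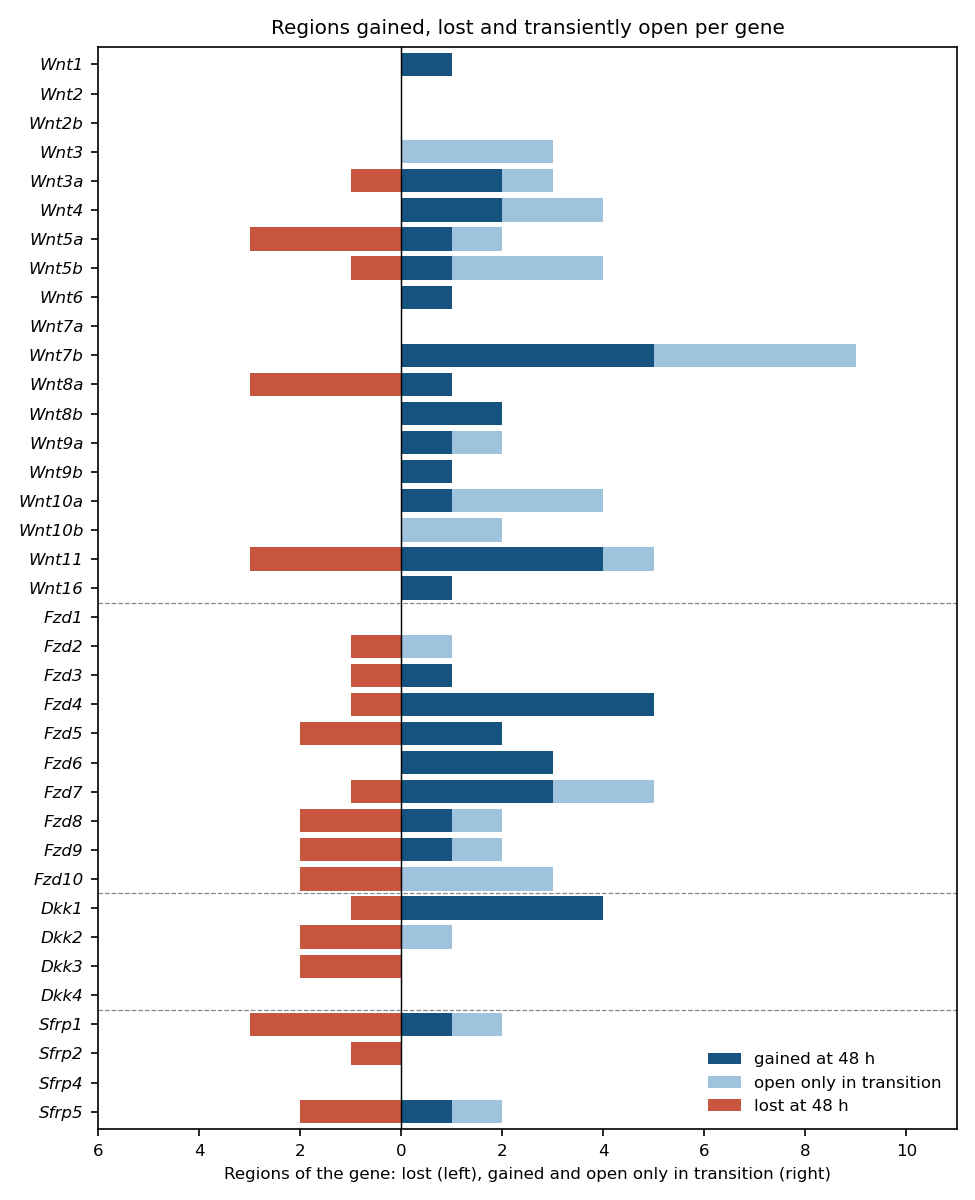
Number of regions of each gene (horizontal axis) that were gained at 48 h (dark blue) or open only in transition (light blue), to the right, and lost at 48 h (red), to the left. Dashed lines part the Wnt, Fzd, Dkk and Sfrp genes. Wnt7b has 5 gained and 4 transiently open regions and none lost, and Wnt5a, Wnt8a, Wnt11 and Sfrp1 have 3 lost regions each.

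Changes were present from the first time point. Gained regions numbered 23 at 2 h (8.88%, beside 8.09% of all assigned regions), 28 at 4 h (10.8%, beside 9.34%), 33 at 8 h (12.7%, beside 10.5%), 48 at 16 h (18.5%, beside 12.7%) and 36 at 24 h (13.9%, beside 11.5%). Lost regions numbered 14 at 2 h (5.41%, beside 5.71%), 18 at 4 h (6.95%, beside 6.53%), 20 at 8 h (7.72%, beside 8.56%), 20 at 16 h (7.72%, beside 8.31%) and 26 at 24 h (10.0%, beside 11.4%). The 16 h time point thus had the most gained regions and was farthest above its background. The longest peak list of the series, with 65073 peaks, was also from 16 h. Among those gained by 48 h, 7 of 46 (15.2%) were called in both libraries at every time from 2 h on, beside 8.20% of all gained regions. Another 20 (43.5%) were called by both libraries for the first lasting time at 48 h, beside 43.8%. Lasting calls in both libraries began at 16 h for 6 of 24 gained Wnt regions (25.0%), beside 14.5% of all gained regions. None of the 16 gained Frizzled regions began then, a difference that rests on few regions.

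**Figure D3:**
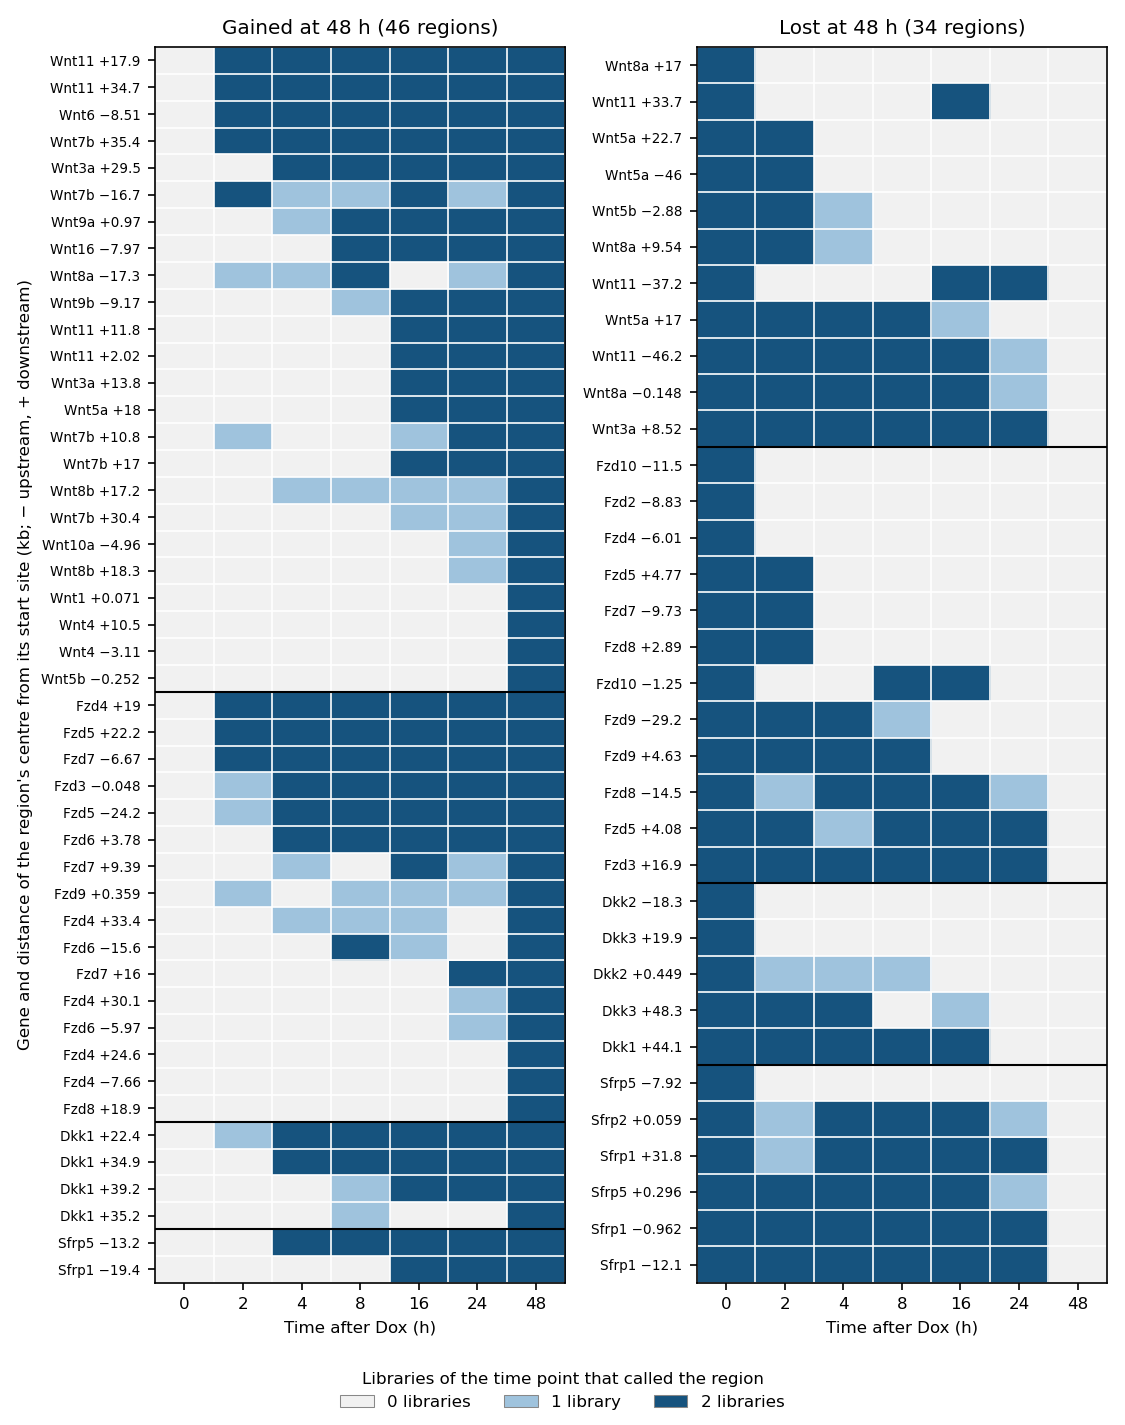
Each row is 1 region gained (left) or lost (right) at 48 h, named by its gene and the distance of its centre from the start site in kb. Columns are time points, evenly spaced, and the shade gives whether 0, 1 or 2 libraries called the region, with lines between the Wnt, Fzd, Dkk and Sfrp families. The left panel holds 7 regions called in both libraries at every time from 2 h on, 4 of Wnt and 3 of Fzd genes, and all but 1 of the 6 lost Sfrp regions were still called in at least 1 library at 24 h.

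Set against 2 h, with both sides in serum, 48 h libraries had 38 gained regions (14.7%, beside 13.3% of all assigned regions) and 37 lost regions (14.3%, beside 15.3%). Both shares lay close to the background. With replicate 1 or replicate 2 left out the gained count was 58 in either case, since a single library per side is a looser rule, whose background share was not counted. A further 32 member regions were open only in transition, called by no library at 0 or 48 h and by both at a time between (12.4%, beside 12.7%). Another 5 were closed only in transition, called by all 4 end libraries and by neither at a time between (1.93%, beside 1.46%). With replicate 1 or replicate 2 left out, 56 or 58 regions were open and 15 or 19 closed only in transition, again without a background share.

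The order of calling over all 14 libraries was tested region by region, on the ranked times of the calling libraries. The test was an exact two-sided permutation test, with the Benjamini-Hochberg correction taken across the 79559 regions called in 2 to 12 libraries. It treats the 14 libraries as independent, also the 2 of a time point, and the sources do not say whether those came from separate cultures. If they did not, the p-values are too small. Among the 165 member regions tested, 23 rose over time (13.9%, beside 12.4% of the assigned regions tested) and 15 fell (9.09%, beside 10.9%). The risers were 12 Wnt, 6 Fzd, 3 Dkk and 2 Sfrp regions, and the fallers 7 Wnt, 5 Fzd, 2 Dkk and 1 Sfrp region. A region called in all but the 0 h libraries, in no library but those of 48 h, or in the mirror patterns has 2 or 12 calling libraries and reaches an adjusted p of 0.0541 at best, so such regions cannot pass this test however clear their pattern. Without both 0 h libraries 11 regions rose and 12 fell. With peak lists cut to their 50000 highest peaks, 224 regions were members, of which 42 rose and 29 fell. The shares of all tested regions were not counted under these settings, so such moves may concern the whole series. The rising count was 15 without 4 h replicate 1, 8 h replicate 1, 8 h replicate 2 or 16 h replicate 2, each left out alone.

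Near start sites the members moved in both directions. Of 42 regions within 1 kb of a TSS, 5 were gained (11.9%, beside 9.04% of all assigned regions so placed) and 5 lost (11.9%, beside 5.30%). Of 178 regions over 5 kb from a TSS, 37 were gained (20.8%, beside 15.7%) and 23 lost (12.9%, beside 17.7%). Distal Wnt regions had 18 gained and 9 lost of 91, and distal Frizzled regions 13 gained and 7 lost of 49. By position, 73 member regions overlapped an exon, 74 lay in introns and 112 were intergenic.

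Among the ligands, 14 of 19 Wnt genes had at least 1 gained region, a count without a matching share over all genes. Wnt7b and Wnt11 had the most gained regions, and also the most regions, 18 each. Wnt7b, a ligand of the β-catenin branch known from lung and placenta, had 5 gained regions, 4 open only in transition and none lost, of 18. The region 16981 bp downstream of its start (chr15:85560836-85561342, intron) was called in both libraries at 16, 24 and 48 h and in no earlier one. Its score percentile, the rank of the peak's deposited score within its own library, ran from 22.4 to 50.4, and it rose over time (adjusted p = 0.013, exact permutation test). The Wnt7b region 35378 bp downstream was called from 2 h on in every library. Its percentile lay between 81.8 and 89.7 at 2, 4 and 8 h and was 13.5 and 1.69 at 48 h, so this gained region was among the lowest-ranked peaks of its libraries at the end.

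Wnt11, which acts mostly in the branch that controls cell movement and polarity, had 4 gained and 3 lost regions of 18. The regions 2016 bp downstream (chr7:98840573-98841149, intron) and 11788 bp downstream (chr7:98850432-98850834, exon) were called in every library from 16 h on and in none before. The percentile of the first went down from 58.1 and 56.6 at 16 h to 25.7 and 34.5 at 48 h, and that of the second ran from 14.8 to 43.6. Both regions rose in calls over time (adjusted p = 0.013, exact permutation test), which takes no account of rank. A region between them, 10599 bp downstream (chr7:98849183-98849705, exon), was called in both libraries at 16 and 24 h and in no other. The other 2 gained Wnt11 regions, 17877 and 34676 bp downstream, were called in every library from 2 h on. At the second of these the percentile was 50.6 and 49.3 at 2 h and 93.2 and 92.5 at 48 h. The Wnt11 region 46211 bp upstream was called in all libraries to 16 h, in 1 at 24 h and in none at 48 h, and fell over time (adjusted p = 0.0451, exact permutation test).

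Other ligand genes had few changed regions. Wnt16 had 1 gained region, 7975 bp upstream (chr6:22279940-22280565, intergenic), called in all 8 libraries from 8 h on with percentiles of 28.2 to 64.4, and it rose (adjusted p = 0.013, exact permutation test). Wnt3a, a classical activator of β-catenin, had a gained intron region 29465 bp downstream with percentiles of 62.2 and 81.2 at 4 h and 88.5 and 84.9 at 48 h. It also had a lost one, 8518 bp downstream, which ranked between 86.1 and 98.6 up to 16 h and at 32.2 and 36.5 at 24 h. Both gained Wnt3a regions rose in the trend test (adjusted p = 0.013, exact permutation test). Wnt6, a ligand linked to endoderm differentiation of embryonal carcinoma cells, had a region 8508 bp upstream that was open from 2 h on, with percentiles of 23.8 and 22.9 at 2 h and 48.5 and 51.3 at 48 h. Wnt4 and Wnt8b had 2 gained regions each and Wnt9b and Wnt10a 1 each. Of these 6, those of Wnt9b and Wnt10a and the Wnt8b region 18276 bp downstream rose over time.

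Lost ligand regions lay at 5 genes, Wnt3a, Wnt5a, Wnt5b, Wnt8a and Wnt11, each of which also had a gained region. Wnt5a, the best known ligand of the polarity branch, had 3 lost regions of 6, all of which fell over time (adjusted p = 0.013 each, exact permutation test). The strongest, 17034 bp downstream (chr14:28528107-28528772, intergenic), ranked between 78.8 and 87.0 in the 6 libraries of 0, 2 and 4 h, at 8.76 and 34.3 at 8 h and at 22.7 in 1 library of 16 h, and was not called later. Its neighbour 18009 bp downstream was called from 16 h on, with percentiles of 15.4 and 1.11 at 16 h and 72.1 and 67.3 at 48 h, and rose (adjusted p = 0.013, exact permutation test). The regions 45980 bp upstream (chr14:28458475-28459066, in an intron of Erc2) and 22661 bp downstream were called in both libraries at 0 and 2 h and in none afterwards. Of Wnt5b, the region 2885 bp upstream (chr6:119452035-119452507, intron) was called in both libraries at 0 and 2 h, in 1 at 4 h and in none later, and fell (adjusted p = 0.013, exact permutation test).

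Wnt8a, a β-catenin-branch ligand of the early embryo, had 3 lost regions. The region 9535 bp downstream ranked at 90.7 and 94.4 at 0 h and at 36.1 and 59.3 at 2 h, was called in 1 library at 4 h and in none later, and fell (adjusted p = 0.013, exact permutation test). The region at its start site, 148 bp upstream, ranked at 96.0 and 96.5 at 0 h and between 57.3 and 89.6 from 2 to 16 h, and was called in 1 library at 24 h and in none at 48 h. It too fell (adjusted p = 0.0451, exact permutation test). Of the 32 regions open only in transition 21 belonged to Wnt genes, 15.4% of the 136 Wnt regions, beside 12.7% of all assigned regions. One of them was the intron region 6085 bp downstream in Wnt4, called in all 10 libraries from 2 to 24 h with percentiles of 62.2 to 95.1 and in neither end group. The Wnt5b regions 7902 bp downstream (chr6:119536002-119536831) and 1544 bp downstream (chr6:119465404-119465931) were open at 2 and 4 h alone.

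Pairs of Wnt genes lie close together, so some of these regions could belong to either neighbour. The gap is 6.19 kb between Wnt6 and Wnt10a, 11.7 kb between Wnt1 and Wnt10b, 16.2 kb between Wnt3a and Wnt9a and 24.3 kb between Wnt3 and Wnt9b. The rule gave each region to the nearer start site, and its real target was not tested. At the edge of the rule, the outermost regions inside 50 kb were 49096 bp from Wnt11 and 49004 bp from Fzd7, and the first outside were 50425 bp from Wnt5a and 50454 bp from Sfrp1. Of 49 regions 50 to 100 kb from a member TSS 6 were gained and 8 lost at 48 h.

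Among the receptors, 7 of 10 Frizzled genes had gained regions and 8 had lost ones, 6 of them both, and Fzd1 alone had neither. These counts too have no matching share over all genes. Fzd4, a receptor for Wnt ligands and for Norrin, had 5 gained regions and 1 lost of 9. Its region 19042 bp downstream was open from 2 h on, with percentiles of 3.86 and 41.1 at 2 h and 65.7 and 71.7 at 48 h. The region 30060 bp downstream (chr7:89434223-89434608, in an intron of the long non-coding gene AI314278) was called in 1 library at 24 h at a percentile of 20.1 and in both at 48 h at 78.8 and 73.8, and rose over time (adjusted p = 0.0451, exact permutation test). All 5 gained Fzd4 regions lay nearer to the TSS of a non-coding gene than to that of Fzd4, 4 of them to AI314278.

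Fzd6, a receptor of the polarity branch, had 3 gained regions and none lost. The intron region 3778 bp downstream (chr15:39009904-39010319), whose sequence is given above, was called in all 10 libraries from 4 h on with percentiles of 17.6 to 67.4 and rose (adjusted p = 0.013, exact permutation test). Fzd7, the most studied Frizzled of pluripotent cells, had 3 gained and 1 lost region. The gained region 6669 bp upstream was open from 2 h on with percentiles of 58.4 to 77.8, and the one 16002 bp downstream (chr1:59498240-59498613, nearer to the lincRNA Gm26813) was called at 24 and 48 h in both libraries and rose (adjusted p = 0.013, exact permutation test). The lost region 9728 bp upstream (chr1:59472260-59473133) ranked at 72.0 and 80.8 at 0 h and at 43.4 and 24.5 at 2 h and was not called later. It fell (adjusted p = 0.013, exact permutation test).

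Fzd5, known for its role in yolk sac vessels, gained 2 distal regions and lost 2 regions over its exons. The region 24174 bp upstream (chr1:64761645-64762206) was called in 1 library at 2 h, at a percentile of 1.19, and in both from 4 h on, at 49.9 to 81.8, and it rose (adjusted p = 0.0451, exact permutation test). The one 22234 bp downstream was open from 2 h on with percentiles of 68.5 to 91.6. Of the lost pair, the region 4767 bp downstream ranked at 72.2 and 77.3 at 0 h and at 10.6 and 23.5 at 2 h and was not called later. Fzd9 lost 2 regions, one 4628 bp downstream (chr5:135246276-135246928, nearer to a start of a Baz1b transcript that is not protein coding) that was called in all libraries up to 8 h and in none after, and one 29210 bp upstream (chr5:135280169-135280712). Both fell (adjusted p = 0.013, exact permutation test). Fzd3 lost an intron region 16938 bp downstream that ranked between 77.7 and 93.2 in all 10 libraries up to 16 h, at 12.8 and 17.3 at 24 h, and was not called at 48 h. Fzd8 had 1 gained region and 2 lost ones, of which the one 2886 bp downstream fell over time (adjusted p = 0.013, exact permutation test). Fzd10 had 2 lost and 3 open only in transition, and Fzd2 had 1 lost.

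Among the inhibitors, the 4 gained Dkk regions all lay downstream of Dkk1, the secreted inhibitor that binds Lrp5 and Lrp6. The region 39172 bp downstream (chr19:30510057-30510929) was called in 1 library at 8 h at a percentile of 30.5, and in both from 16 h on at 86.6 to 93.2. The one 34890 bp downstream (chr19:30514573-30514978) was called in both libraries from 4 h on, at 79.9 to 94.3. Another, 22354 bp downstream (chr19:30526779-30527844), was called in 1 library at 2 h at 6.32 and in both from 4 h on at 68.3 to 87.5. All 3 rose over time, with adjusted p = 0.013, 0.013 and 0.0451 (exact permutation test). The first pair had the highest median percentiles of the 46 gained member regions, 91.6 and 89.7. The fourth, 35221 bp downstream (chr19:30514366-30514522), reached 44.3 and 33.6 at 48 h and did not pass the test (adjusted p = 0.177, exact permutation test).

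In the same stretch a region 44078 bp downstream of Dkk1 (chr19:30505169-30506006) went the other way. It ranked at 90.7 and 81.7 at 0 h, 62.6 and 60.6 at 4 h, and 49.6 and 59.1 at 16 h, was not called at 24 or 48 h, and fell (adjusted p = 0.013, exact permutation test). A neighbour 32899 bp downstream was called in all 14 libraries, and counted as shared. It ranked at 10.1 and 20.3 at 0 h and between 85.0 and 98.2 from 2 h on. The start site of Dkk1 was called in 13 of 14 libraries. All 5 changed regions lay nearer to the TSS of 1 of 2 processed pseudogenes, AC103405.1 and AC103405.2, than to that of Dkk1. When start sites of every gene type are allowed, no gained region is left to the Dkk family.

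**Figure D4:**
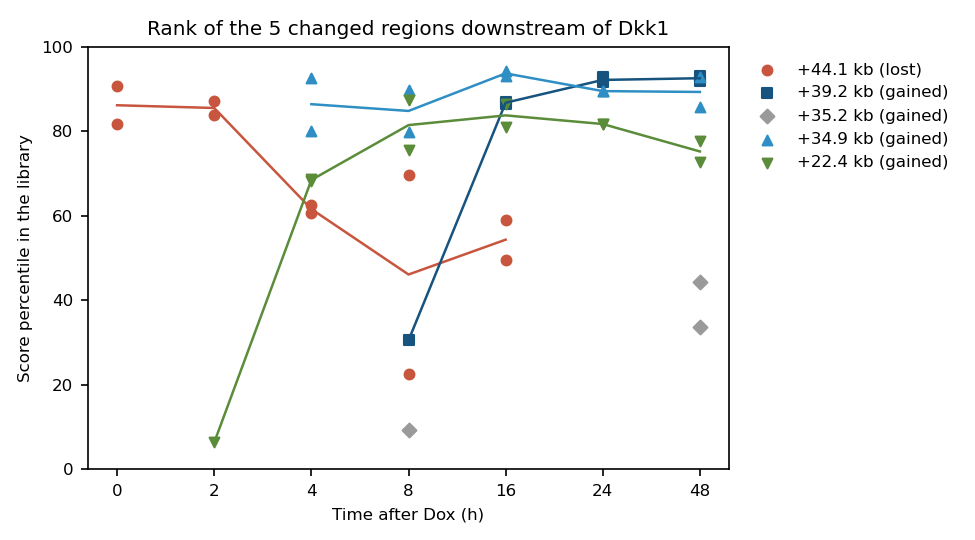
Score percentile within each library (vertical axis) of the 5 regions downstream of Dkk1 that were gained or lost at 48 h, by time after Dox (horizontal axis, evenly spaced). Points are libraries that called the region, lines join their means, and a missing point means that the library did not call it. The region 44.1 kb downstream descends from 90.7 and 81.7 at 0 h to no call at 24 h, and the one 39.2 kb downstream is at 86.6 or above from 16 h on.

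The other Dkk genes had no gained region. Dkk2, which can raise or lower signalling, lost 2 of 5 regions, among them the one at its start site (chr3:132085104-132086378, 449 bp downstream), which ranked at 15.8 and 10.9 at 0 h, was called in 1 library each at 2, 4 and 8 h, and was not called later. A Dkk2 region 47394 bp upstream (chr3:132037529-132038267) was open at 2, 4 and 8 h alone, in both libraries each time. Dkk3, a divergent member that does not bind the Lrp co-receptors in the same way, lost 2 of 8 regions. The one 48275 bp downstream, in an exon of Usp47 (chr7:112110533-112111032), fell over time (adjusted p = 0.021, exact permutation test), and the one 19876 bp downstream (chr7:112138984-112139378) was called at 0 h alone.

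The Sfrp genes lost more regions than they gained. Sfrp1 had 3 lost regions of 12, and they stayed open until late. The region 12073 bp upstream (chr8:23398981-23399877) ranked between 30.5 and 87.5 up to 16 h and at 25.7 and 42.6 at 24 h. The one 962 bp upstream (chr8:23410268-23410813) ranked between 32.3 and 70.6 in all 12 libraries up to 24 h. Neither was called at 48 h, a pattern that the trend test cannot call. The Sfrp1 start site itself, 33 bp downstream, was called in all 14 libraries. One Sfrp1 region was gained, 19402 bp upstream (chr8:23391746-23392454), called in all 6 libraries from 16 h on at 38.5 to 78.0, and it rose (adjusted p = 0.013, exact permutation test).

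Sfrp5, an inhibitor that marks anterior visceral endoderm in the embryo, lost its start-site region (chr19:42201275-42202638) and gained one upstream. The start-site region ranked between 24.1 and 41.6 in all 10 libraries up to 16 h, at 10.8 in 1 library of 24 h, and was not called at 48 h, and it fell (adjusted p = 0.0451, exact permutation test). The gained region 13150 bp upstream (chr19:42215054-42215751) was called from 4 h on, at 86.8 to 89.3 at 8 and 16 h and at 46.6 and 38.5 at 48 h, and it rose in calls over time (adjusted p = 0.013, exact permutation test). A further region 7922 bp upstream (chr19:42209806-42210543) was called at 0 h alone, at 67.9 and 69.4. Sfrp2 lost its start-site region, which ranked at 38.6 and 37.6 at 0 h, 58.5 and 49.8 at 16 h and 2.06 in 1 library of 24 h, and was not called at 48 h (adjusted p = 0.216, exact permutation test). Sfrp4 had no gained or lost region, but its 2 start-site regions were called in no library at 24 h. At 48 h one of them, 351 bp upstream, was back in both libraries at the low percentiles of 9.87 and 6.39, against 44.3 and 74.6 at 0 h.

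Promoter regions are those with a centre within 1 kb of a start site. Of the 42 member regions so placed 31.0% were called in all 14 libraries, beside 48.5% of all assigned regions so placed, with 58.3% of 12 at Frizzled genes and 23.8% of 21 at Wnt genes, a difference that was not tested. By gene, such a region was called in all 14 libraries at 7 of 10 Frizzled genes, 5 of 19 Wnt genes, 1 of 4 Sfrp genes and no Dkk gene. The same was not counted over all genes, and a gene with several start sites has more chances of such a call. Dkk1 and Dkk3 missed 1 library each. There was none in any library at Wnt5a, Wnt6, Wnt8b, Wnt10a, Wnt10b and Dkk4, although Wnt6 had a region 1370 bp downstream in all 14. Promoter regions were gained at 48 h at Wnt1, Wnt9a, Fzd3 and Fzd9. That of Fzd3, 48 bp upstream, was called in both libraries from 4 h on at 32.8 to 83.1 and rose (adjusted p = 0.0451, exact permutation test), and that of Wnt9a, 970 bp downstream, in both from 8 h on (adjusted p = 0.013, exact permutation test). That of Wnt1 appeared at 48 h alone, at 27.4 and 1.79. Wnt5b kept a promoter region in all libraries and gained another at a different start site at 48 h, at 36.9 and 14.

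Promoter regions were lost at Wnt8a, Dkk2, Sfrp1, Sfrp2 and Sfrp5. At Sfrp1 this was the region 962 bp upstream, while the one 33 bp downstream stayed in all 14 libraries. At Wnt3, the ligand that starts the primitive streak, the promoter region was called in no 0 h library, in both libraries from 2 to 24 h at 2.94 to 55.5, and in 1 at 48 h at 24.4. The promoter region of Fzd6 came and went without order, with both libraries at 0, 2 and 8 h and neither at 4 and 16 h.

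**Figure D5:**
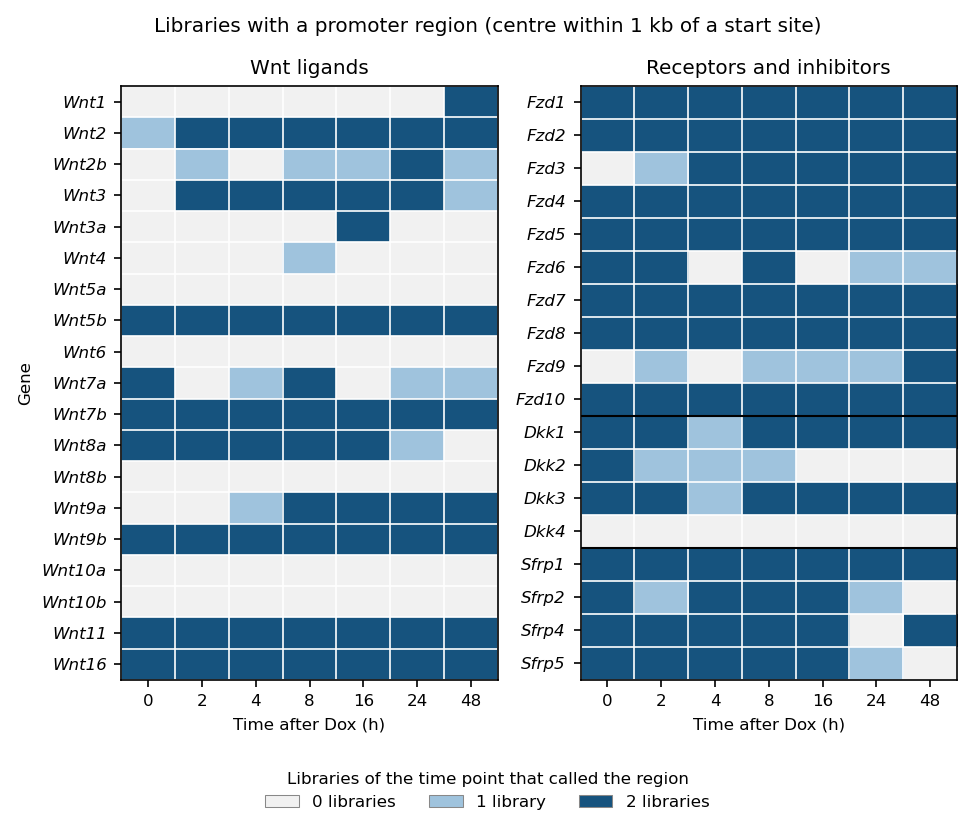
Number of libraries (0, 1 or 2, by shade) with a promoter region of each gene at each time after Dox (columns, evenly spaced), for the Wnt ligands on the left and the Fzd, Dkk and Sfrp genes on the right, parted by lines. A gene with several such regions counts a library that called any of them, and the 2 libraries of Wnt3a at 16 h called different regions. In the right panel, 7 Frizzled genes are called throughout, and Dkk2, Sfrp2 and Sfrp5 are not called at 48 h.

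Promoter sequences are shown for 5 of the changed promoter regions. They are the 250 bases before the start site from RefSeq (GRCm38.p6), 5′ to 3′ on the gene's strand, with GATA words in capitals. These bases overlapped the region but no annotated exon, although each region itself reached into an exon. For the 37 genes, 28 promoters of 25 genes were found in that table.
Wnt1 gained promoter, chr15:98789607-98789856, plus strand: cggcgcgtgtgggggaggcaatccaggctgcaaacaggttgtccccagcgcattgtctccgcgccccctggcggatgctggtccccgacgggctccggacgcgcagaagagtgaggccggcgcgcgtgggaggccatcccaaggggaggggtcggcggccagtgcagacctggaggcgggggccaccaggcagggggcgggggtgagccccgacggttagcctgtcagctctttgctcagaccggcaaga
Wnt5b gained promoter, chr6:119544348-119544597, minus strand: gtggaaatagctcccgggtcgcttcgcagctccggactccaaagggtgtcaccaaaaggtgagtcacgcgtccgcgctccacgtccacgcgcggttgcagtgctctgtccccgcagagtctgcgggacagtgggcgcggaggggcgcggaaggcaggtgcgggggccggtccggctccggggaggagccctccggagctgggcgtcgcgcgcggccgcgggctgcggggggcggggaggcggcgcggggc
Dkk2 lost promoter, chr3:132085042-132085291, plus strand: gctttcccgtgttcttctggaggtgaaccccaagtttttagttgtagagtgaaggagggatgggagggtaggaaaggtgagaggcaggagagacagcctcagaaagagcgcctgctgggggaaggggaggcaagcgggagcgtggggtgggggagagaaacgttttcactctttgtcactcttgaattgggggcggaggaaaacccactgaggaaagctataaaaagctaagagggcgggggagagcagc
Sfrp2 lost promoter, chr3:83766071-83766320, plus strand: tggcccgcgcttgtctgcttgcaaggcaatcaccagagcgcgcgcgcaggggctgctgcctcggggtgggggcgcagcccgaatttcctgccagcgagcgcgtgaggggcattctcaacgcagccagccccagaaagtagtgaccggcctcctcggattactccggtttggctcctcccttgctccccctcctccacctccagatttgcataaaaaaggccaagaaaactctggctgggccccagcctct
Sfrp5 lost promoter, chr19:42202253-42202502, minus strand: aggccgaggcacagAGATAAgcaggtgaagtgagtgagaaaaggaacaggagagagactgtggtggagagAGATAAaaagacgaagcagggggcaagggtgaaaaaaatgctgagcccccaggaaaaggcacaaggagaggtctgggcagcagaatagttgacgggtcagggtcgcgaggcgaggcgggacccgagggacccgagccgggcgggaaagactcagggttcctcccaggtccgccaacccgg
The Sfrp5 promoter held 2 GATA words and the other 4 held none, beside 26.5% of 32851 RefSeq promoters of the same length with at least 1. None of these 5 held a TCF/LEF word, which 14.8% of those promoters did.

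Motif words were counted in the 200 bases around each region's centre, on both strands. The GATA words were those above and the TCF/LEF words were CTTTGAA, then its variants spelled CTTTGAT, further the form CTTTGTA, plus the form CTTTGTT, which overlapped a GATA word in 1 member region. A GATA word was found in 25 of 46 gained regions (54.3%), 7 of 34 lost (20.6%) and 16 of 53 shared regions (30.2%). Over all assigned regions these shares were 55.2%, 21.2% and 16.8%. Gained and lost members thus lay near the background, while a larger share of shared members held the word, with 25.4% and 32.4% in replicates 1 and 2 compared singly. The shared sets differed in place, with 16 of the 53 members within 1 kb of a TSS, beside 11226 of all 20741 shared regions. Shares matched for place were not counted for either kind of word. By family, 10 of 16 gained Frizzled regions, 10 of 24 gained Wnt regions, 3 of 4 gained Dkk1 regions and both gained Sfrp regions held a GATA word. Of the regions open only in transition 11 of 32 (34.4%) did, beside 51.1% of all such regions.

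A TCF/LEF word was found in 7 of 46 gained regions (15.2%), 12 of 34 lost (35.3%) and 8 of 53 shared (15.1%), beside 18.3%, 24.3% and 9.95% over all assigned regions. Among Wnt genes, 1 of 24 gained and 5 of 11 lost regions held one. Among Dkk genes 3 of 4 gained and 3 of 5 lost regions did. With single libraries compared, replicate 1 or replicate 2 alone, the share in lost member regions was 28.3% or 34.0%. A word in a window is no sign that a factor bound there.

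Other parts of the pathway were counted from a list of 38 components, all of which had regions, 324 in all. At 48 h 45 of these (13.9%) were gained and 42 (13.0%) lost, beside 14.2% and 14.8% of all assigned regions. In the trend test 26 of 209 rose (12.4%, beside 12.4% of the assigned regions tested) and 20 fell (9.57%, beside 10.9%). All 4 shares were thus close to the background. Tcf7l2, a transcription factor at the end of the pathway, had 11 gained and 2 lost regions of 34, and its relative Tcf7l1 had 2 gained and 7 lost of 27. Lef1 had none gained and 4 lost of 14. The promoter of Kremen2, which works with Dkk1 against Lrp6, was called in both libraries from 0 to 8 h and in none from 16 h on. The promoter of Notum, the enzyme that strips the lipid from Wnt ligands, was called in both libraries at 24 and 48 h and in none before. The promoter of Ctnnb1, which encodes β-catenin, was called in 1 library at 0 h, in none at 2 and 4 h and in both at 8, 24 and 48 h. Frzb, which is related to the Sfrp genes but outside the naming rule, had 2 gained regions and none lost, and its promoter was called throughout.

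Lists held between 55588 and 65073 peaks per library. Regions of 7 PrE marker genes, among them Gata4, Sox17 and Pdgfra, had 47 gained (40.5%) and 7 lost (6.03%) of 116, beside 14.2% and 14.8% of all assigned regions, and a promoter region was called in both libraries for 4 of the 7 at 0 h and for all 7 at 48 h. Regions of 7 ES marker genes had 22 gained (18.3%) and 26 lost (21.7%) of 120. Markers of other cell types had 4 gained (10.5%) and 7 lost (18.4%) of 38 regions for trophoblast, 4 and 4 of 19 (21.1% each) for mesoderm, 4 and 4 of 27 (14.8% each) for neural cells and 2 (15.4%) and 1 (7.69%) of 13 for fibroblasts. Their part in the results was not tested. For 92 of the 259 member regions, including 43 of 71 at Frizzled genes, a start site of a non-coding gene, a pseudogene or a non-coding transcript of another gene lay nearer. With such start sites allowed, 170 regions were members, of which 29 were gained and 22 lost at 48 h. The shares of all regions assigned by that rule were not counted.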

How the data were processed

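ATAC-seq was analysed from 14 peak lists, 1 per library, that the authors deposited after the ENCODE ATAC-seq pipeline. Peaks had passed an irreproducible discovery rate of 0.05 on pseudoreplicates of each library and a blacklist, so replicates were not pooled. The deposited value of each peak is an unnamed score, used here only to rank peaks within a library. The labels name mm10 and GRCm38 as builds, and no peak of 839049 ran past a GRCm38 chromosome end. Aligner and caller versions are not given in the sources used here. The deposited lists carry no read counts, and the study's own read numbers per library were left unused.

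Peaks overlapping by 1 bp or more were merged into 124598 regions and assigned, by region centre, to the nearest start of a protein-coding transcript (GENCODE M21) within 50 kb. The trend test was an exact two-sided permutation test per region, adjusted by Benjamini-Hochberg at 0.05 and tested on simulated data. The study describes its replicate experiments as independent, but neither it nor the labels say whether the 2 ATAC-seq libraries of a time point came from separate cultures, so their spread may be technical. Genes were named if any of their regions was gained, lost, transiently open or past the trend test, or if they had no region. Coordinates were given for up to 4 gained, 4 lost and 3 transition-only regions per family, ranked by the trend p and then by median percentile. Sequences were given for up to 8 of them and for some changed promoters. Members, lists and tests were chosen with earlier results of these data known. Python 3.11.15, numpy 2.4.6, pandas 2.3.3 and pysam 0.24.0 were used.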

Additional observations from a re-analysis of the deposited data

How the results depend on the processing

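Counts of member regions were recomputed under stricter, looser and differently assigned calls. The shares of all assigned regions were not recomputed, so the counts below have no background beside them. Calling a region from at least 1 library of each time point gave 72 gained and 52 lost at 48 h against 0 h, 56 open only in transition and 65 gained against 2 h. Allowing start sites of any gene type left 170 member regions, with 29 gained, 22 lost, 2 closed only in transition, 25 gained against 2 h and 9 falling. Of 177 member regions within 20 kb, 21 were open and 1 closed only in transition and 9 fell. The 50000 highest peaks per library left 224 member regions, with 8 closed only in transition, 42 rising and 29 falling. Without the 0 h libraries 11 rose, and without the 48 h libraries, added after the data were seen, 9 fell. The causes were not tested. With 1 replicate number left out the counts ranged from 65 to 68 gained, 46 to 47 lost, 56 to 58 open and 15 to 19 closed only in transition, and, against 2 h, 58 gained and 49 to 50 lost. The trend fits without a replicate number leave 7 libraries, too few to reach the threshold, and were not run. Leaving out each library in turn, added after the data were seen, gave 15 to 29 rising and 12 to 21 falling.

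The replicate numbers share no source in the labels, and libraries of the same number did not deviate together, with correlations from -0.0152 to 0.0124 over 21 pairs of time points. With a replicate block 15 regions rose and 12 fell.

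GATA shares in gained, lost and shared regions were 73.9%, 61.8% and 54.7% over whole regions and 39.1%, 8.82% and 11.3% in 100 bp windows. Lost regions over 5 kb from a TSS had 17.4%. TCF/LEF shares were 32.6%, 55.9% and 41.5% over whole regions, 10.9%, 23.5% and 7.55% in 100 bp windows and 18.9%, 43.5% and 18.2% over 5 kb from a TSS. With 1 replicate left out GATA shares ranged from 46.2% to 55.9% in gained, 23.4% to 23.9% in lost and 25.4% to 32.4% in shared regions, and TCF/LEF shares from 10.8% to 11.8%, 28.3% to 34.0% and 14.3% to 14.7%. The order of GATA shares, gained above shared above lost, held in the 100 bp windows, while over whole regions lost lay above shared.

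The median score percentile of members was 44.1 for gained regions at 48 h, 52.0 for lost regions at 0 h and 59.4 for shared regions at 48 h. By peak width it was 46.5, 65.8 and 65.4. Over all assigned regions these medians were 46.1, 48.6 and 73.3 by score and 47.8, 52.6 and 68.8 by width. With 1 replicate left out the score median of members ranged from 43.7 to 44.5, 47.8 to 56.1 and 59.2 to 59.6. Of 89 other alternatives 52 stayed within 1.5 times the count or 1 SD of the share. Read depth, not used here, and 2 libraries a time limit every count.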

Other observations

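Genes that the β-catenin branch is known to switch on were counted from a list of 10 targets, Axin2, Sp5, Nkd1, Nkd2, T, Cdx1, Cdx2, Myc, Ccnd1 and Tnfrsf19. Of their 92 regions 10 (10.9%) were gained and 26 (28.3%) lost at 48 h, beside 14.2% and 14.8% of all assigned regions. By 2 h 11 (12.0%) were already lost, beside 5.71%. Myc had 6 lost regions and none gained, Tnfrsf19 5 lost and 2 gained, Axin2 4 lost and 1 gained, and Sp5 3 lost and 1 gained. The promoter regions of T, a mesoderm factor, and Cdx1 were called in both 0 h libraries and in no later library. That of Sp5 was called in at least 1 library at each time up to 24 h and in none at 48 h, and those of Axin2, Nkd2, Cdx2, Myc and Tnfrsf19 were called in all 14 libraries. Against 2 h, the 48 h libraries had 6 gained (6.52%) and 19 lost (20.7%) of the 92 regions, beside 13.3% and 15.3%. The 0 h cells alone were in 2i medium, so medium and induction cannot be told apart for losses at any time. The comparison with 2 h does not part them either, since time in serum also differed.

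Among inhibitors outside the Dkk and Sfrp families, the promoter region of Sostdc1, a secreted inhibitor, was called in both libraries at 0 h, in 1 each at 2 and 4 h and in none later, while Wif1 kept its promoter region in all 14 libraries. Rspo3, a secreted enhancer of Wnt signalling, had 1 gained and 1 lost region of 5, and in the trend test 1 of the 5 rose and 1 fell (adjusted exact permutation test).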
